A study of Mus musculus with 2 samples.

Results

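The genes described here encode 8 transcription factors and 2 products of the collecting duct: Gata3, Gata2, Tfap2a, Tfcp2l1, Elf5, Ehf, Grhl2, Foxi1, Aqp2 and Calb1, which are 10 of 21951 protein-coding genes in the GENCODE M21 annotation of mm10 (GRCm38). They were chosen by name. A peak was assigned to a gene where it overlapped the gene body or the 2 kb upstream of it, which gave 65 of 159560 peaks in the Enl-WT library and 47 of 130027 in the Enl-T1 library. Peaks of the libraries that overlapped were joined into shared regions, of which 43 of 110706 lay over these genes.

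Single-nucleus ATAC-seq (snATAC-seq) reads where a transposase can cut the DNA of a nucleus, and so measures how open the chromatin is and not how much RNA is made. It was applied to whole kidneys of B6 mouse embryos at E15.5, with 1 library per group. Enl-WT kidneys were Enl+/+ Wt1GFPCre/+. Enl-T1 kidneys were heterozygous for the T1 allele (Enl flox-T1/+ Wt1GFPCre/+), an insertion in Enl (Mllt1), a reader of acetylated histones, that is found in Wilms tumour. Both groups therefore carried 1 Wt1-GFPCre knock-in allele, which inactivates that copy of Wt1. The Cre is driven by Wt1, whose expression the study reports as limited to the nephron and stromal lineages. By the study, the ureteric epithelium thus lies outside the lineage in which the T1 allele is switched on. The allele was not read in each class of nuclei here. How many embryos were pooled is not given in the sources at hand, and there was no replicate.

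The ureteric bud branches into the kidney mesenchyme. Its dividing tips signal through the receptor Ret, and the stalks they leave behind become the collecting ducts, where principal cells take up water and intercalated cells secrete acid or base. Gata3 is needed for the nephric duct and for Ret in it, and its relative Gata2 acts in the urogenital tract and in blood vessels. Tfap2a is an AP-2 factor of the distal nephron and collecting duct. Tfcp2l1, of the CP2 family, is needed for the patterning of principal and intercalated cells. Elf5 and Ehf are epithelial ETS factors, of which Elf5 marks principal cells. Grhl2, a grainyhead factor, maintains tight junctions and the lumen of the duct. Foxi1 directs intercalated cells. Aqp2 is the water channel of principal cells that vasopressin regulates, and Calb1 (calbindin) is a calcium-binding protein widely used to stain the ureteric tree.

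The regions where these genes stood furthest above other nuclei of the kidney are shown for 5 genes, as windows outside annotated exons (the Tfap2a region itself touches an exon beside its window), so that the letters behind the clearest ureteric signal can be read. They were picked by that excess. Each is the central 300 bases of the region, 5′ to 3′ on the plus strand of GRCm38 (mm10). Letters are lower case except where they match a short motif on either strand: AGATAA for GATA factors, GCCNNNGGC for AP-2 factors, AACCGGTT for grainyhead factors, CCGGAA for ETS factors and CCAG, any 6 letters and a second CCAG for CP2 factors. The distance is from the annotated start of the gene in the direction of transcription.
Elf5, intron, 1.78 kb, chr2:103413364-103413663: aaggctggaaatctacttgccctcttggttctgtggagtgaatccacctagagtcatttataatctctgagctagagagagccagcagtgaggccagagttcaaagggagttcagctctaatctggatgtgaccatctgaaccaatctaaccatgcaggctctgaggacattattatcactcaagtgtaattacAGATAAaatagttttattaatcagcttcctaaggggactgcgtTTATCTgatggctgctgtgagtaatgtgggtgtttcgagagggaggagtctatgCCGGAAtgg
Calb1, intron, 1.30 kb, chr4:15882423-15882722: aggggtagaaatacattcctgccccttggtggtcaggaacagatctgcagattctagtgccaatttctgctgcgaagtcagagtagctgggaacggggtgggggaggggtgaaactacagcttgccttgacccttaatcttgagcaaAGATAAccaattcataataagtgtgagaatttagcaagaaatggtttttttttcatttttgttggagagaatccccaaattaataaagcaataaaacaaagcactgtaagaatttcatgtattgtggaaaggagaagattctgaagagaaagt
Grhl2, intron, 80.1 kb, chr15:37312935-37313234: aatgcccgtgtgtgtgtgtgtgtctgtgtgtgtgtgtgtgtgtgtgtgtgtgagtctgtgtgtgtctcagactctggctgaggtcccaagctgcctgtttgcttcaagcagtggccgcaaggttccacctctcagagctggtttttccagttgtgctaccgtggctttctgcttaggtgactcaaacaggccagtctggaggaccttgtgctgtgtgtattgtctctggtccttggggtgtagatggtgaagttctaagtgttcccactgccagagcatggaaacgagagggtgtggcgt
Tfcp2l1, intron, 20.4 kb, chr1:118648104-118648403: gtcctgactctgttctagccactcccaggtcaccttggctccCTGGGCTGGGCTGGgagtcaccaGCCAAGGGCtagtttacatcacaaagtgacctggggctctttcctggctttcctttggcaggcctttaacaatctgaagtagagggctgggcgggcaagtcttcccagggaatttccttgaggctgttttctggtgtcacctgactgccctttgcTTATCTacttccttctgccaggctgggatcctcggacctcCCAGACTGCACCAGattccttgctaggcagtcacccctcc
Tfap2a, 7.27 kb, chr13:40730918-40731217: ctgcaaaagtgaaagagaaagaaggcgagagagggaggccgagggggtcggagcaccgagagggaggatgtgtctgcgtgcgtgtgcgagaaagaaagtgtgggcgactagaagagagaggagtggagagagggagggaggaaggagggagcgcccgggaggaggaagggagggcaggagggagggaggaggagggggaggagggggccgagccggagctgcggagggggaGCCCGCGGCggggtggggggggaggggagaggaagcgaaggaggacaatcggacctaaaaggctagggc
The Elf5 window held 2 matches to the GATA letters and 1 to the ETS letters. The Calb1 window held 1 GATA match. The Tfcp2l1 window held 2 CP2 matches, 1 AP-2 match and 1 GATA match, and its CP2 matches are matches to the letters of the factor that the gene itself encodes. The Tfap2a window likewise held 1 AP-2 match. No match to any of the 5 motifs stood in the Grhl2 window. Over the central 300 bases of all 43 regions, 9 (20.9%) held the GATA letters against 13.2% of 110665 windows over all shared regions, 11 (25.6%) held AP-2 against 12.6%, 6 (14.0%) held ETS against 8.23%, 4 (9.30%) held CP2 against 4.48%, and 0 held grainyhead against 0.182%. The motifs can overlap each other. A match is a description of the letters and not a binding site, and a window without one says nothing about the factor.

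The Enl-WT library was the deeper one, with a median of 14789.5 counts in peaks per nucleus over 9472 nuclei against 8753 over 12635 in Enl-T1. The libraries held 169 barcodes in common, of which 149 were kept in both. Nuclei were clustered without any region within 100 kb of the 10 genes, and clusters were named from marker genes that hold none of them, so the members' own values did not shape the classes. Clusters 2, 9 and 22 were named ureteric epithelium-like. These held 936 nuclei in Enl-WT (9.88%) and 1879 in Enl-T1 (14.9%). Of the 9 ureteric markers, among them Ret, Wnt11, Wnt7b, Krt19 and Cldn4, the clusters had 7, 6 and 6 raised. Their summed level was 574 CPM in these nuclei of Enl-WT and 544 CPM in those of Enl-T1, against 411 and 301 in distal tubule or loop-like nuclei and 174 and 170 in stroma-like nuclei. Not each marker stood apart. Wnt11 had 63.5 and 53.5 CPM in ureteric nuclei against 62.4 and 58.1 CPM in stroma-like nuclei. CPM are counts over a gene's shared regions, scaled so that the counts of a class in all shared regions sum to 1000000. Distal tubule or loop-like nuclei were 738 in the Enl-WT and 82 in the Enl-T1 library, proximal tubule-like nuclei 695 and 14, and podocyte-like nuclei 325 and 0 (at most 0.0292% by the exact interval), so the makeup of everything outside the ureteric epithelium differed between the libraries.

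The 7 transcription factors with shared regions were open in ureteric epithelium-like nuclei of both libraries. Gata3 had 169.5 CPM in Enl-WT (exact Poisson 95% interval 160 to 180) and 167.5 CPM in Enl-T1 (159 to 177). In all other named nuclei it had 60.8 and 61.7 CPM, so it stood 1.48 and 1.44 higher on the log2 scale in the ureteric epithelium. Grhl2 had 164.8 and 160.6 CPM in the ureteric epithelium against 56.1 and 55.2 CPM elsewhere. Both genes thus had nearly the same level and the same excess in either library. Tfap2a had 158.8 CPM in Enl-WT and 140.5 CPM in Enl-T1, against 63.0 and 57.6 CPM in the other named nuclei. In distal tubule or loop-like nuclei alone, Tfap2a had 138.5 and 134.2 CPM (99 to 179 in Enl-T1). Grhl2 had 129.1 and 125.7 CPM there (91 to 169 in Enl-T1), so both genes stood much less apart from this class. Elf5 had 115.0 and 106.8 CPM against 40.8 and 38.9 CPM. Calb1 had 30.1 and 35.4 CPM against 9.46 and 9.42 CPM, the widest excess of the 9 measured genes in Enl-WT, at 1.67 on the log2 scale (95% interval 1.43 to 1.91).

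**Figure D1:**
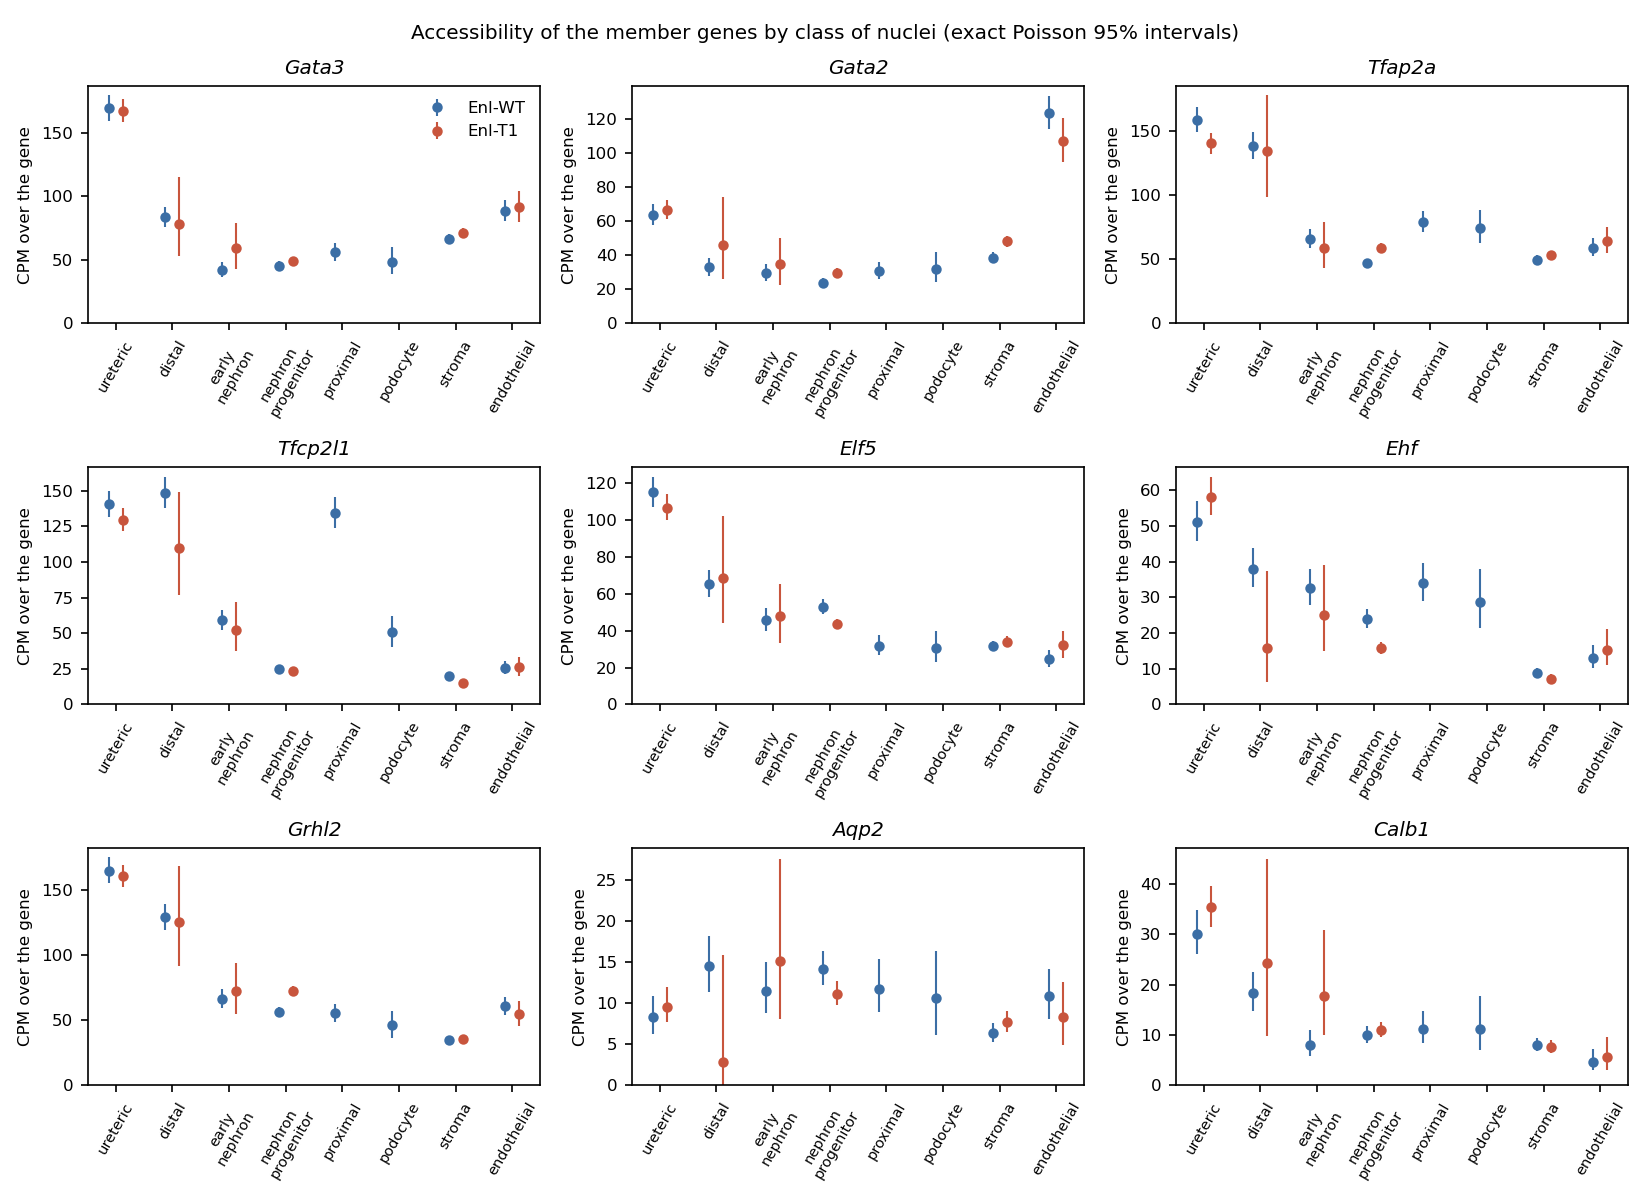
Points give the summed accessibility (CPM, linear axis from 0) of each measured gene in 8 classes of nuclei with at least 50 nuclei, in Enl-WT (blue) and Enl-T1 (red), and bars are exact Poisson 95% intervals for counting error. Ureteric epithelium-like nuclei were highest for Gata3, Grhl2, Elf5, Ehf and Calb1 in both libraries, distal nuclei of Enl-WT matched them for Tfcp2l1 at 148.2 CPM, endothelial nuclei led for Gata2 at 123.4 and 106.9 CPM, and Aqp2 reached at most 15.1 CPM in any class shown.

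Gata2, Tfcp2l1 and Ehf also stood less apart or depended on which nuclei they were set against. Gata2 had 63.7 and 66.5 CPM in the ureteric epithelium, an excess of 0.66 log2 in each library, and was higher in endothelial-like nuclei at 123.4 and 106.9 CPM. Tfcp2l1 had 140.5 CPM in the ureteric epithelium of Enl-WT, no higher than the 148.2 CPM (138 to 159) of distal tubule or loop-like nuclei or the 134.3 CPM (124 to 145) of proximal tubule-like nuclei of that library. Its log2 excess was 1.55 in Enl-WT and 2.60 in Enl-T1. Between these libraries the ureteric level moved only from 140.5 to 129.6 CPM, while the level in all other named nuclei went from 48.0 to 21.4 CPM. Ehf behaved alike, with 51.2 and 58.2 CPM in the ureteric epithelium against 20.8 and 12.4 CPM elsewhere. The proximal and distal classes that held much of the Tfcp2l1 signal in Enl-WT were those with few nuclei in Enl-T1. The part of this makeup in the wider excess was not tested.

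Aqp2 and Foxi1 each had little to measure. Aqp2 had 1 shared region, which lay over its last coding exon and 3′ UTR 4.93 kb from the start, and no peak at its promoter in either library. That region had 8.40 CPM (6.32 to 10.9) in ureteric nuclei of Enl-WT and 9.63 CPM (7.68 to 12.1) in those of Enl-T1, against 10.6 and 9.50 CPM in other nuclei, and did not mark the ureteric epithelium. Nephron progenitor-like nuclei of Enl-WT were higher, at 14.2 CPM (12.3 to 16.4). Foxi1 had a single peak, listed for Enl-WT alone, over its start at chr11:34207499-34208725. It held 148 counts in ureteric nuclei, or 11.3 CPM, against 2.06 CPM in the other named nuclei and 7.05 CPM in distal nuclei, a log2 excess of 2.45 (2.01 to 2.89) over all others. Since the peak was not in the Enl-T1 list, the level of Foxi1 in Enl-T1 was not measured.

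Of the 9 genes with shared regions, 8 were past 1.5-fold in favour of the ureteric epithelium in each library, all except Aqp2. Of all genes tested, 8.39% did so in Enl-WT and 10.6% in Enl-T1. The same held region by region. In Enl-WT, 33 of the 42 regions with enough counts were past 1.5-fold, against 17.1% of all shared regions, and in Enl-T1 33 of 43, against 19.3%. The nuclei that gave these classes also gave the values, and no p-value can be had from 1 library per group. Per kb of region, which allows genes to be ranked, Tfap2a and Gata3 were the most open in ureteric nuclei, at 34.9 and 32.9 CPM per kb in Enl-WT and 34.5 and 33.3 in Enl-T1. Tfcp2l1 (25.6 and 27.5), Gata2 (22.7 and 23.7) and Calb1 (18.2 and 21.0) followed, and Elf5, Grhl2 and Ehf lay close together between 13.9 and 15.2 CPM per kb in Enl-WT and between 16.8 and 17.1 in Enl-T1. Aqp2 was last, at 8.09 and 10.6 CPM per kb. The order was the same in both libraries, and Tfap2a and Gata3 did not differ beyond the width of their intervals.

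The share of nuclei with at least 1 count, which is not scaled to length, was also compared at equal depth. Without this step Gata3 was open in 65.7% of ureteric nuclei in the Enl-WT library, against 50.5% in Enl-T1, whose nuclei were shallower at a median of 9307 counts against 15795.5. With each nucleus thinned to 1000 fragments the shares were 15.1% (12.9 to 17.6%) and 14.4% (12.9 to 16.1%). Stroma-like nuclei, with median depths of 13725 and 7913 counts before thinning, gave 6.13% and 6.80% for Gata3. Grhl2 gave 15.1 and 14.4% against 2.86 and 3.84% in stroma, and Tfcp2l1 gave 12.5 and 11.3% against 1.65 and 1.29%. At the other end, Aqp2 gave 1.39 and 0.958% against 0.572 and 0.705%. The thinning left out 2 Enl-WT and 1 Enl-T1 ureteric nuclei.

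Within a gene, the excess in ureteric nuclei differed in size between regions. Over the 12 shared regions at an annotated transcription start the median log2 excess was 2.1 in Enl-WT and 2.11 in Enl-T1, and 11 were past 1.5-fold in each. Over the 23 that touched no exon of the gene it was 1.28 and 1.49, with 19 past in each. At Elf5, the intron region whose sequence is given above had 37.2 CPM in ureteric nuclei of Enl-WT and 35.8 CPM in Enl-T1, with a log2 excess of 3.88 and 4.04, while the region at the start of the gene had 10.5 and 13.8 CPM. The region near the 3′ end of Elf5, 37.5 kb from the start over a coding exon, went the other way, with 2.29 and 2.66 CPM in ureteric nuclei against 20.8 and 12.5 CPM in nephron progenitor-like nuclei. At Ehf the region over the start had 17.2 and 20.7 CPM and the widest excess of any region at these genes in Enl-T1, at 4.72 (3.06 in Enl-WT).

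Grhl2 had the most regions, 10 over 131 kb. The region over its start had 48.3 and 44.4 CPM in ureteric nuclei, with a log2 excess of 2.52 and 2.98. Beyond it, the intron region 80.1 kb into the gene had 22.2 and 24.0 CPM with an excess of 2.87 and 3.40. Regions at 22.8, 60.5 and 67.2 kb had 0.763 to 3.88 CPM in ureteric nuclei and point values below the level of other nuclei in both libraries, so the excess of Grhl2 was not spread evenly over its body. At Gata3 the region 2.22 kb inside the gene had 31.1 and 24.6 CPM with an excess of 3.31 and 3.29. Of the 6 Gata3 regions, 4 overlap exons of Gm13256, 4930412O13Rik or 9230102O04Rik, and ATAC-seq does not tell strands apart. The Tfap2a regions at 15.4, 4.46 and -0.01 kb overlap the antisense genes Gm47061, Gm26688 and Gm47067, and that at 15.4 kb was open almost everywhere, with an excess of only 0.31 and 0.26. At Calb1, the intron region given above had 8.47 and 10.7 CPM in ureteric nuclei and an excess of 3.25 and 3.46, against 1.34 and 1.55 at the start.

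**Figure D2:**
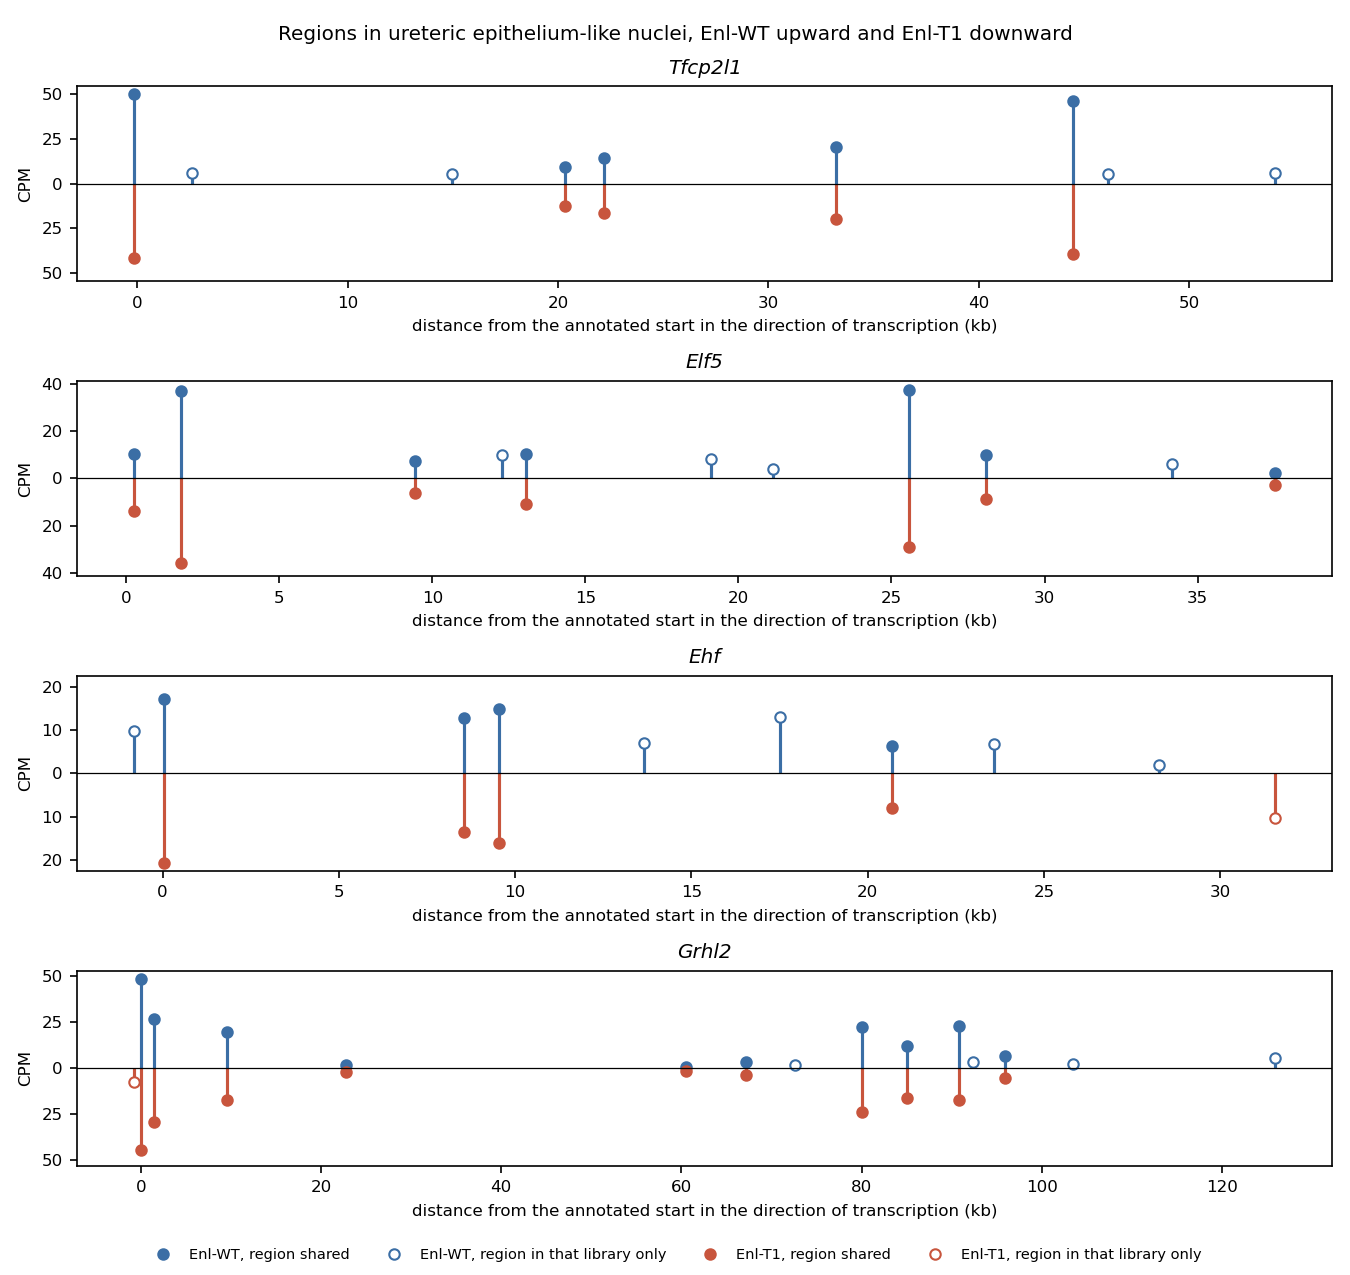
Each stem is a region over Tfcp2l1, Elf5, Ehf or Grhl2 in ureteric epithelium-like nuclei, placed by its distance from the annotated start (kb), with its CPM in Enl-WT drawn upward and in Enl-T1 downward, filled where the region was shared and open where 1 library listed it. Shared stems with enough counts lie within 1.5-fold of each other, though at some the interval left out 0. At the Tfcp2l1 start, 50.1 CPM up and 41.5 down, the log2 ratio was -0.27 (-0.50 to -0.05). The open stems reach at most 13.1 CPM.

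The central comparison asked whether accessibility at these genes differed between Enl-T1 and Enl-WT. In ureteric epithelium-like nuclei the differences were small. None of the 9 genes was past 1.5-fold, where 0.837% of 15525 genes tested were past it toward higher and 0.522% toward lower values in Enl-T1. The log2 ratios ran from -0.18 to 0.23 with a median of -0.02, the same as the -0.02 of all genes tested. For Gata3, at 169.5 and 167.5 CPM, the ratio was -0.02 (95% interval -0.13 to 0.10), which leaves room for a change of about 0.1 in either direction from counting error alone. This is a sum over regions that did not all move together. The Gata3 region at 2.22 kb gave -0.33 (-0.62 to -0.05) and that at 0.59 kb gave 0.36 (0.04 to 0.69). Its other shared regions had intervals that included 0. Grhl2 gave -0.04 (-0.15 to 0.08) and Gata2 0.06 (-0.13 to 0.25). Tfcp2l1 gave -0.12 (-0.24 to 0.01) and Elf5 -0.11 (-0.25 to 0.03).

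Tfap2a was the exception by its interval. It went from 158.8 to 140.5 CPM, a log2 ratio of -0.18 (-0.30 to -0.05), and was the only gene of the 9 whose interval lay below 0, as 11.3% of all genes tested did, while 6.83% lay above 0 and none of the 9. Genes with fewer counts had wider intervals. Calb1 gave 0.23 (-0.04 to 0.49), Ehf 0.19 (-0.02 to 0.39) and Aqp2 0.20 (-0.31 to 0.73). Region by region, none of 37 was past 1.5-fold (3.78% of all shared regions higher and 2.73% lower), and 6 of 37 with enough counts had an interval below 0 and 2 above 0, against 9.9% and 6.71% of all shared regions. For a sum over nuclei, fewer nuclei of an open state and less accessibility per nucleus cannot be told apart. A library counts as 1 sample, so these intervals carry no embryo-to-embryo error.

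**Figure D3:**
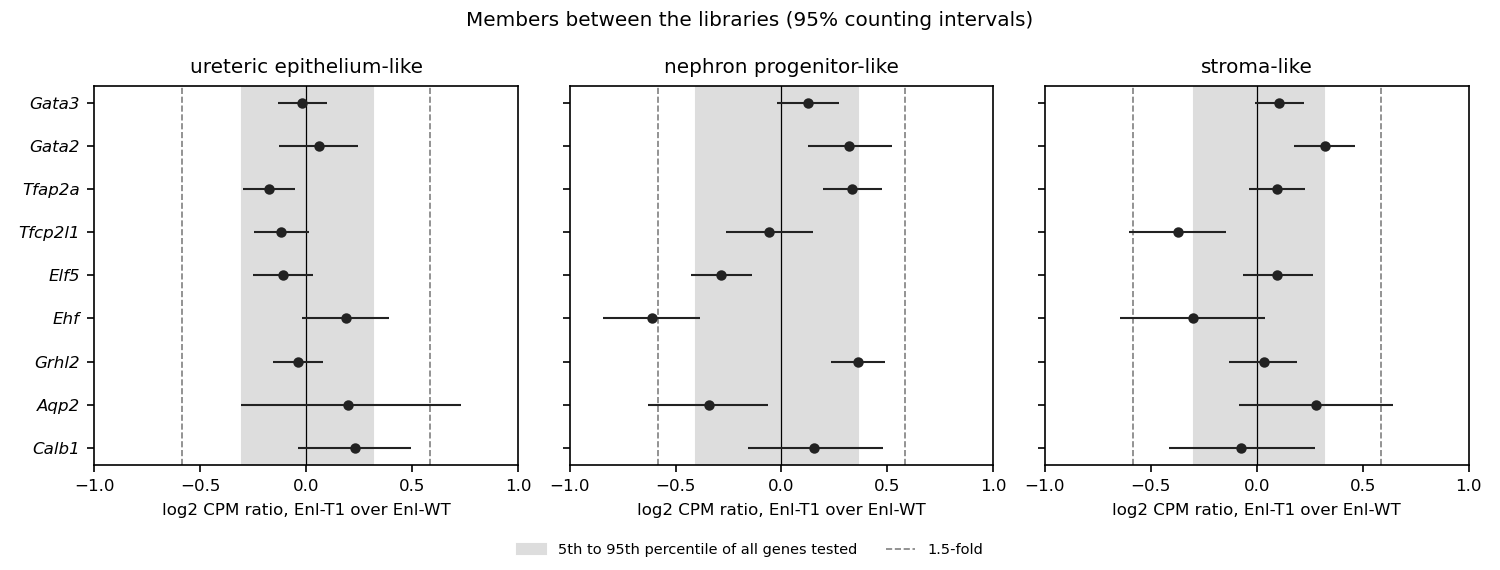
Points are log2 CPM ratios of Enl-T1 over Enl-WT for the 9 measured genes in 3 classes, with 95% counting intervals, over the band from the 5th to the 95th percentile of all genes tested (grey) and the 1.5-fold limits (dashed). All 9 genes lie inside the band in ureteric nuclei, while Ehf lies at -0.61 in nephron progenitor-like nuclei and Gata2 at 0.32 and Tfcp2l1 at -0.37 lie at or beyond the band in stroma-like nuclei.

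The clusters within the ureteric epithelium differed more than the libraries did over the whole class, but these contrasts rest on unequal counts. Between clusters 9 and 2 the median size of the log2 ratio was 0.22 over the members in each library. Over all genes it was 0.18 in Enl-WT and 0.16 in Enl-T1. Between the libraries it was 0.12 over the members and 0.11 over all genes in the whole class. Within cluster 9 alone, on fewer nuclei, the libraries gave 0.11 over the members and 0.16 over all genes. For genes in general, the sizes therefore do not rank clusters against libraries. Clusters are split by accessibility, so a difference between them follows in part from how they were made. Cluster 2 held 703 Enl-WT and 956 Enl-T1 nuclei, cluster 9 held 205 and 803, and cluster 22 held 28 and 120. Cluster 9 thus made up 21.9% (19.3 to 24.7%) of ureteric nuclei in Enl-WT, and in Enl-T1 42.7% (40.5 to 45.0%). In cluster 9, Calb1 had 20.5 CPM in Enl-WT against 33.0 CPM in cluster 2, a log2 ratio of -0.69 (-1.28 to -0.10), and in Enl-T1 21.6 against 46.0 CPM, a ratio of -1.09 (-1.50 to -0.69). Tfap2a was also lower in cluster 9, by -0.55 (-0.79 to -0.30) and -0.36 (-0.54 to -0.18), and so was Tfcp2l1, by -0.42 (-0.67 to -0.17) and -0.32 (-0.50 to -0.13). Elf5 gave -0.19 (-0.46 to 0.07) in Enl-WT but -0.47 (-0.68 to -0.26) in Enl-T1. Gata3 was level, at 0.05 (-0.16 to 0.25) and 0.00 (-0.16 to 0.16), and Grhl2 and Ehf did not differ beyond their intervals.

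Of the 8 members with enough counts, cluster 9 had an interval below 0 for 3 (Enl-WT) and 4 (Enl-T1), against 8.83% and 11.2% of all genes, and none had one above 0, against 8.16% and 9.37%. Calb1 alone was past 1.5-fold lower in each library, as 5% (Enl-WT) and 2.88% (Enl-T1) of genes were, and no member was past it higher (2.41% and 2.3%). Beside them, 7 of 8 genes of the ureteric tip were lower in cluster 9 in each library, such as Sox8, a tip factor downstream of Ret, at -1.34 and -1.04, and Gfra1, the co-receptor of Ret, at -0.46 and -0.64. Of 7 urothelial genes, 2 (Enl-WT) and 4 (Enl-T1) had an interval above 0, such as Upk1b, a uroplakin gene (1.35 and 0.84), and 1 had an interval below 0 in each, Grhl3 (-0.40 and -0.29). Of 7 intercalated genes, 3 and 1 had an interval above 0 and 0 below it, and Slc4a9, a bicarbonate transporter, gave 1.07 and 0.89. Of 8 stalk or medullary genes, 1 had an interval below 0 in each library, and 1 (Enl-WT) and 0 (Enl-T1) had one above 0. The tip, urothelial, intercalated and stalk genes took part in the clustering, so their values only describe the clusters. Foxi1 had 14.3 CPM in cluster 9 and 10.7 CPM in cluster 2 of Enl-WT.

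**Figure D4:**
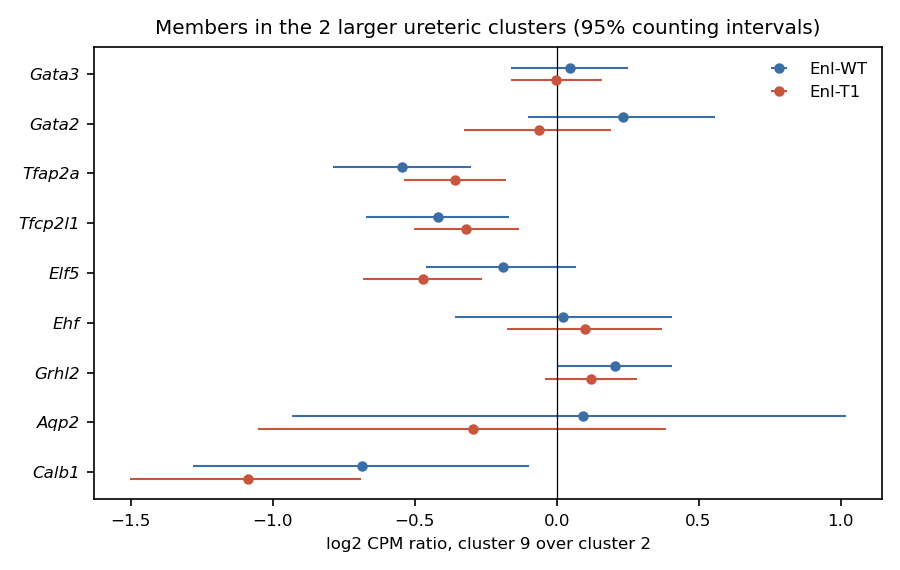
Points are log2 CPM ratios of cluster 9 over cluster 2 within Enl-WT (blue) and within Enl-T1 (red) for the 9 measured genes, with 95% counting intervals. Tfap2a, Tfcp2l1 and Calb1 lie left of 0 in both libraries, Elf5 in Enl-T1, and Gata3 sits at 0.05 and 0.00.

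Within cluster 2, Calb1 was the only member whose interval between the libraries left out 0. It went from 33.0 to 46.0 CPM, a log2 ratio of 0.48 (0.17 to 0.78), where 4.62% of all genes had an interval above 0 and 7.37% one below it, and within cluster 9 it went from 20.5 to 21.6 CPM (0.07, -0.59 to 0.72). Tfap2a, lower in the whole class, gave -0.12 (-0.27 to 0.02) within cluster 2 and 0.07 (-0.20 to 0.33) within cluster 9. Its lower level in the class went with the larger share of cluster 9, where it is less open, in Enl-T1, and the part of this share was not tested. No member was past 1.5-fold within cluster 2 (0.518% of genes higher and 0.559% lower) or within cluster 9 (1.69% and 1.17%).

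In nephron progenitor-like nuclei, which lie inside the Wt1-Cre lineage, the members had low levels that differed more between the libraries. Progenitor markers summed to 358 CPM in these nuclei of Enl-WT and 297 CPM in those of Enl-T1, against 240 and 273 CPM in stroma-like nuclei. The class was thus less clearly marked in Enl-T1. Ehf had 24.0 CPM (21.5 to 26.8) in Enl-WT and 15.7 CPM (14.0 to 17.5) in Enl-T1. Its log2 ratio was -0.61 (-0.84 to -0.39). It was the 1 member of 9 past 1.5-fold, in the lower direction, as 2.14% of 16345 genes were, and none was past it in the higher direction (1.58%). The call was lost with simulated doublets removed (-0.52) and at clustering resolution 2 (-0.48), and the region over the Ehf start alone gave -0.12. Elf5 went the same way, from 53.1 to 43.6 CPM (-0.28, -0.43 to -0.14), and so did Aqp2, from 14.2 to 11.2 CPM (-0.34, -0.63 to -0.06). Summed over their regions, Ehf, Elf5 and Aqp2 were thus lower in Enl-T1 while others were higher. The Elf5 regions did not move together. They gave -0.74 and -0.40 at 37.5 and 25.6 kb from the start, but 1.05 and 0.83 at 9.45 and 13.1 kb.

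Grhl2 went from 56.2 to 72.2 CPM (0.36, 0.23 to 0.49), Tfap2a from 46.8 to 59.0 CPM (0.33, 0.19 to 0.48) and Gata2 from 23.8 to 29.7 CPM (0.32, 0.12 to 0.52). Intervals above 0 were seen for 3 of 9 members and 16.6% of all genes, and below 0 for 3 of 9 and 18.6%. The median size of the change was 0.32 over the members and 0.12 over all genes. Gata3, Tfcp2l1 and Calb1 had intervals that included 0, at 0.13 (-0.02 to 0.27), -0.06 and 0.15. Of the 30 regions with enough counts, 5 were past 1.5-fold higher (11.3% of all regions) and 3 past it lower (12.2%).

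The region changes were uneven along a gene. At Grhl2, the intron region 60.5 kb from the start, at chr15:37292975-37294095, had 2.19 CPM in Enl-WT and 6.26 CPM in Enl-T1 (1.52, 0.91 to 2.12). The same region had 0.514 and 2.32 CPM in stroma-like nuclei (2.18, 1.08 to 3.26), and in ureteric nuclei, where the gene is most open, 0.763 and 1.57 CPM. The region 90.8 kb from the start had 3.12 and 7.34 CPM in nephron progenitor-like nuclei (1.24, 0.74 to 1.77) and the start itself 4.23 and 7.09 CPM (0.75, 0.29 to 1.21). At Elf5, the region 37.5 kb from the start went from 20.8 to 12.5 CPM (-0.74, -0.99 to -0.49), and those at 9.45 and 13.1 kb gave 1.05 (0.21 to 1.96) and 0.83 (0.34 to 1.36). At Ehf, the 3 intron regions gave -0.57 to -0.68, and the start, with 0.668 and 0.613 CPM, gave -0.12 (-1.55 to 1.25).

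**Figure D5:**
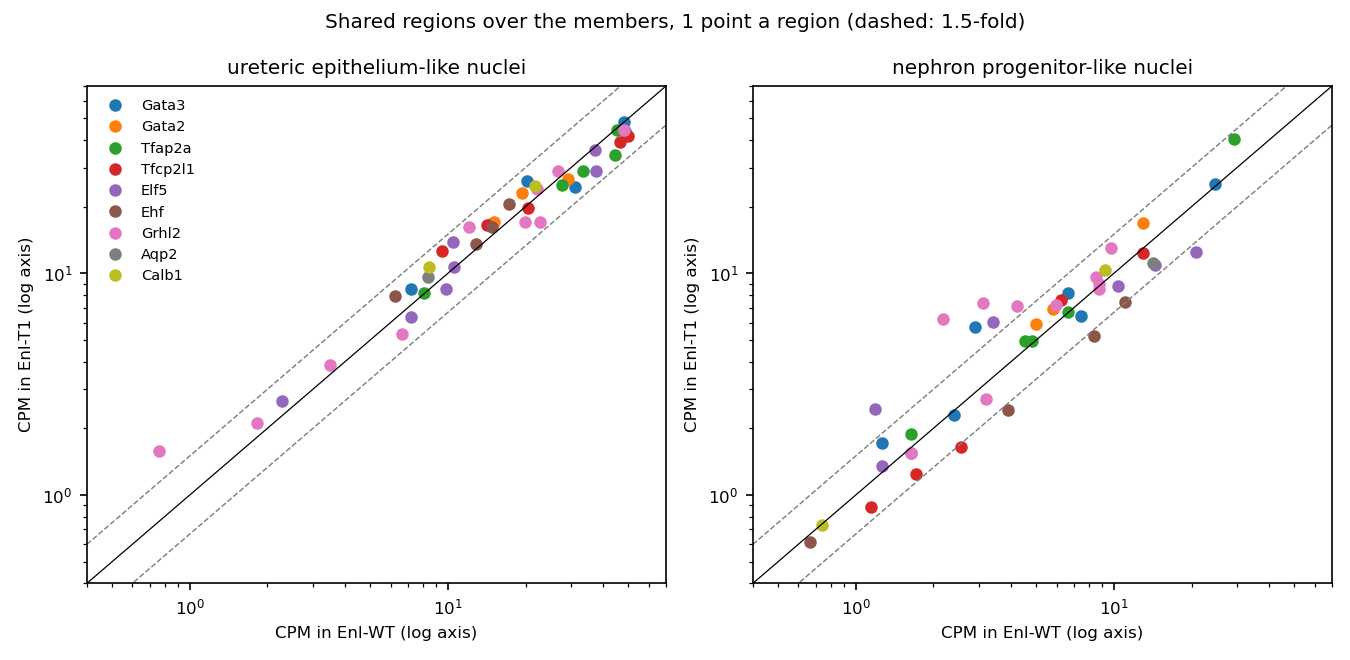
Each point is 1 of the 43 shared regions, coloured by gene, with its CPM in Enl-WT (x, log axis) against Enl-T1 (y, log axis) in ureteric epithelium-like (left) and nephron progenitor-like (right) nuclei; dashed lines mark 1.5-fold. The 37 ureteric points with enough counts lie within the dashed lines, up to 50.1 CPM, a Grhl2 region at 0.763 and 1.57 CPM lies outside them, and the progenitor points spread wider, with Grhl2 regions above the line (2.19 and 6.26 CPM) and an Elf5 region below it (20.8 and 12.5 CPM).

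Nephron progenitor-like nuclei of the libraries fell largely into different clusters. Cluster 1 held 1862 Enl-WT and 114 Enl-T1 nuclei, while clusters 0, 13 and 17 held 3085, 801 and 354 of Enl-T1 and 1, 12 and 52 of Enl-WT. Within cluster 1, Ehf had 24.4 and 21.9 CPM (-0.16, -1.17 to 0.70) and Grhl2 had 56.3 and 46.8 CPM (-0.27, -0.89 to 0.35), against 14.7 and 74.0 CPM in cluster 0 of Enl-T1. Tfap2a gave 0.48 (-0.07 to 0.99) within cluster 1 and 0.49 (-0.27 to 1.32) within cluster 17. There Gata2 gave 1.46 (0.27 to 2.96) on 12 and 142 counts. Ehf had 6.05 and 12.1 CPM in cluster 17 on 5 and 43 counts, higher in Enl-T1 and so opposite in sign to its class value, with an interval that included 0 (-0.67 to 4.49). The cluster 1 intervals of Ehf and Grhl2 rest on 22 and 47 counts of Enl-T1 and include 0. A shift between kinds of progenitor and a change within a kind cannot be told apart. The within-cluster values were chosen after the class values had been seen. Markers of the ureteric list summed to 200 and 208 CPM in these nuclei. The mean log2 level of progenitor markers over the median cluster was 0.78 in cluster 1 and 0.64 in cluster 13. It was 0.44 in cluster 0 and 0.46 in cluster 17, near the limit of 0.4 for a name.

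In stroma-like nuclei no member was past 1.5-fold (0.935% of genes higher and 0.751% lower). Gata2 went from 38.6 to 48.2 CPM (0.32, 0.18 to 0.46), the only interval above 0 (12.8% of all genes), and Tfcp2l1 from 19.9 to 15.4 CPM (-0.37, -0.60 to -0.15), the only one below 0 (16.8%). Within clusters 3, 4 and 5, which both libraries filled, Gata2 gave 0.23, 0.27 and 0.15 with intervals that included 0, it gave 0.04 (-0.53 to 0.60) in cluster 15, with 333 Enl-WT and 295 Enl-T1 nuclei, and -0.46 in cluster 6, and cluster 11, with 830 nuclei of Enl-T1 and 7 of Enl-WT, had 73.3 CPM. For Tfcp2l1 clusters 3, 4, 5, 6 and 15 gave -0.03 to -0.46, all with intervals that included 0. Of 27 regions, 4 were past 1.5-fold lower (5.85% of all regions) and 0 higher (7.24%), among them the Tfcp2l1 start at 7.01 and 4.23 CPM.

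Over all nuclei of a library, the values of some members differed from those in ureteric nuclei. Tfcp2l1 went from 57.8 to 38.8 CPM (-0.58, -0.66 to -0.50) and Ehf from 24.1 to 19.7 CPM (-0.29, -0.40 to -0.17). Within ureteric nuclei the same genes gave -0.12 and 0.19. Calb1 went from 11.7 to 13.6 CPM (0.21, 0.06 to 0.37), and Gata3, Gata2 and Grhl2 were higher by 0.09 to 0.11. These made 4 intervals above 0 and 2 below 0 among the 9 genes, against 17.5% and 32.3% of all genes. None was past 1.5-fold (0.985% of genes higher and 0.896% lower). In early nephron epithelium-like nuclei, 684 in Enl-WT and 165 in Enl-T1, Calb1 had 7.94 and 17.8 CPM (1.16, 0.20 to 2.1) on 79 and 27 counts. These fall short of the 200 counts set for a test. In distal tubule or loop-like nuclei Ehf had 38.1 and 15.7 CPM (-1.28, -2.62 to -0.002) on 378 and 11 counts. Each was the only member in its class whose interval left out 0, and the share of all genes was not taken there.

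The other genes of the pathway, from lists set beside the members, were mostly short of 1.5-fold in ureteric nuclei. Among 12 products of principal cells, Kcnj1, a potassium channel, went from 34.4 to 22.9 CPM (-0.59, -0.88 to -0.31) and was the only one past 1.5-fold. Of all genes tested, 0.522% were past it lower and 0.837% higher. The median of the principal cell list was -0.05. Aqp3, a basolateral water channel, gave 0.48 (0.23 to 0.75) and Aqp4, another, gave -0.43 (-0.70 to -0.16). None of the 10 tip genes was past 1.5-fold, with a median of -0.20. Of these, 6 (Wnt11, Etv4, Etv5, Sox8, Gfra1 and Lhx1) had an interval below 0 and 0 had one above, against 11.3% and 6.83% of all genes tested. Most tip genes were less open in cluster 9, which made up 21.9% of ureteric nuclei in Enl-WT and 42.7% in Enl-T1. The part of this share in the lower tip values was not tested. Gfra1 gave -0.33 (-0.45 to -0.22) while Ret gave 0.01. None of the 8 intercalated products, 11 stalk and urothelial genes or 18 further transcription factors with enough counts was past it either. In nephron progenitor-like nuclei 1 of 10 tip genes, Gfra1 (-0.74), and 1 of 18 further transcription factors, Hoxb7 (-0.90), were past 1.5-fold lower. Another 2 of those 18, among them Emx2 (0.86), and 1 of 10 stalk and urothelial genes, Krt18 (0.74), were past it higher. None of the 11 principal cell and 8 intercalated products was past it. Of all genes tested there, 2.14% were past it lower and 1.58% higher.

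Besides the shared regions, 20 regions over 7 of the genes were listed in Enl-WT alone and 3 over 3 genes in Enl-T1 alone. Counts outside a library's own list are not in its matrix, so these regions have a value in 1 library and no ratio. Those of Enl-WT had 1.91 to 13.1 CPM in ureteric nuclei of that library, and 14 of the 19 with enough counts were past 1.5-fold over other nuclei, against 17.6% of all such regions. Those of Enl-T1 had 7.57 to 10.7 CPM, and 3 of 3 were past it, against 16%. The peak lists differed in length, with 47872 regions in Enl-WT alone and 17478 in Enl-T1 alone, and so did depth, and the part of depth in these lists was not tested.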

How the data were processed

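snATAC-seq was carried out by the authors on E15.5 kidneys, 1 library per group. Per the study's methods and the labels, the authors aligned reads to mm10 with Cell Ranger ATAC 2.1.0 and called peaks per library. The deposited counts are whole numbers per peak and barcode and not normalized. Of the listed values 80.1% and 81.2% were 2, so 2 counts were taken as 1 fragment.

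Barcodes with 2000 to 100000 counts were kept. The study's filters on fragments, blacklisted regions and start-site signal were not applied. Peaks overlapping by at least 1 bp were joined into 110706 shared regions, which held 88.8% and 94.9% of counts. Nuclei of both libraries were clustered together without integration (latent semantic indexing, leidenalg 0.10.2, scikit-learn 1.9.0, Python 3.11.15), leaving out regions within 100 kb of a member. Each cluster was named for the marker list with the greatest mean log2 level over the median cluster, if this was at least 0.4, at least 3 markers were raised by 0.5 or more at 5 CPM or more, and the lead over another lineage was at least 0.1. A cell type's name may change with these settings. Doublets were not removed in the values given, and simulated doublets at 0.8% per 1000 barcodes (7.71% and 10.7% of nuclei) were removed as an alternative.

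Counts were summed per class and library, and scaled to CPM (a total of 1000000) in shared regions. Genes and regions with at least 200 counts over both sides of a comparison, and a count on each side, were tested against the 1.5-fold limit, and the percentages given for all genes or regions use the same rule. Intervals are exact 95% intervals, Poisson for levels, conditional binomial for ratios (on fragments) and Clopper-Pearson for shares (scipy 1.17.1), and cover counting error only. With 1 library per group no p-value was computed. The interval and ratio steps were tested on simulated data. TMM factors came from edgeR 4.0.16 (R 4.3.3). The genes named are the members and the pathway genes past 1.5-fold, of which 1 is not reported here. The members, lists and rules were chosen with earlier results of these data known, and Aqp3, Aqp4, Gfra1 and Ret, and Sox8, Gfra1, Upk1b and Slc4a9 between clusters, were picked after their values were seen. Sequences are from the GRCm38 genome and genes from GENCODE M21.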

Additional observations from a re-analysis of the deposited data

Results flagged for a closer look

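Tfap2a had ratios of opposite sign in different classes. Its log2 ratio of Enl-T1 over Enl-WT was -0.18 in ureteric epithelium-like nuclei and 0.33 in nephron progenitor-like nuclei, each with an interval that left out 0. With 1 library per group, the difference between these classes was not tested.

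Several regions over the members stood out in ureteric epithelium-like nuclei although only 1 library listed them, so that they entered no comparison between the libraries. In Enl-WT alone, the Foxi1 start had 11.3 CPM, Ehf had 13.1 CPM at 17.5 kb and 9.85 CPM at -0.80 kb from its start, Elf5 had 10.0 CPM at 12.3 kb, and Tfcp2l1 had 6.03 CPM at 2.60 kb. In Enl-T1 alone, Gata3 had 10.7 CPM at 18.8 kb and Ehf had 10.4 CPM at 31.6 kb. These were the library-specific regions whose 95% interval of the log2 excess over other named nuclei lay above 1. Their levels in the other library were not measured.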

How the results depend on the processing

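No paired analysis was possible because each group was 1 library, and for the same reason no replicate could be left out. In ureteric nuclei 0 members were past 1.5-fold under every alternative run, and the median ratio (-0.02) ran from -0.14 for the share of nuclei open after thinning to 0.04 over matched regions or the start region alone, with -0.10 under TMM scaling. In nephron progenitor-like nuclei the count went from 1 to 0 at clustering resolution 2 and to 0 with simulated doublets removed, with Ehf at -0.48 and -0.52. With the start region alone the 1 member past 1.5-fold was Grhl2 (0.75) and not Ehf (-0.12). In stroma-like nuclei it went from 0 to 2 with all peaks of each library, Tfcp2l1 (-0.96) and Ehf (-1.03), where peaks listed in 1 library have no counts in the other by construction. It went to 2 with the start region alone, Tfcp2l1 (-0.73) and Ehf (0.59). The Tfcp2l1 start peak was shorter in Enl-T1, at 860 bp against 1316 bp in Enl-WT. The share of ureteric nuclei in Enl-T1 was 15.6% at a minimum of 5000 counts, 14.0% with member regions kept in the clustering and 14.0% with doublets removed. For the other changes the cause was not tested. Single member ratios moved by less than their interval in 85, 85 and 84 of 95 cases in ureteric, progenitor and stroma-like nuclei. In ureteric nuclei Elf5 (-0.11) was 0.04 over matched regions and 0.40 at the start region, so its direction is not settled. TMM scaling shifted all ratios by -0.08, -0.04 and -0.04. The values are limited by depth for Aqp2 and Calb1, by the peak lists for Foxi1, and by the lack of replicates for all.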

Other observations

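Across the 26 clusters, with nuclei of both libraries pooled, the members did not share 1 pattern. Pearson's r of log2 CPM was highest for Tfcp2l1 and Ehf (0.85), Ehf and Grhl2 (0.81) and Tfcp2l1 and Grhl2 (0.81), and was 0.04 for Gata2 and Ehf. The genes outside their neighbourhood most like a member were Gm5148 (0.93) and Gpr39 (0.93) for Tfcp2l1, Plscr1 (0.93) for Ehf, Cnksr1 (0.93) and Wfdc2 (0.92) for Grhl2, Rab15 (0.91) for Elf5, Coa3 and Cntd1 (0.88, over regions they share) for Tfap2a, Grm3 (0.84) for Calb1, Npsr1 (0.83) for Gata3, S1pr5 (0.80) for Aqp2 and Dnah2 (0.79) for Gata2. Clusters share libraries and depth, and these values are descriptions.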
